A study of Mus musculus with 8 samples.

Results

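The epithelial sodium channel and the genes through which aldosterone acts on it were examined in maps of histone H3 acetylated at lysine 27 (H3K27ac), a mark of active promoters and enhancers. The 10 genes were taken by name from 21883 protein-coding genes of the mouse RefSeq annotation: Scnn1a, Scnn1b, Scnn1g, Nr3c2, Hsd11b2, Sgk1, Nedd4l, Usp2, Tsc22d3 and Prss8. Each was given a window of its annotated span plus 10 kb on either side, and every called H3K27ac peak that overlapped the window was used. The rule used no measured value, but the genes were chosen with earlier results of these data known.

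The cells were mpkCCD, a mouse line of the cortical collecting duct, all of clone 11. In the dDAVP group they received 0.1 nM dDAVP, an agonist of the V2 vasopressin receptor, for 24 h. In the vehicle group they received the vehicle alone for the same time. Cells of both groups had been grown on permeable supports to confluency in a medium with dexamethasone, insulin and other supplements, and were then held without serum or hormones for 24 h before treatment. The labels' protocols name no addition of aldosterone. There were 2 experiments, each with a dDAVP and a vehicle immunoprecipitation and an input library for each, which gave 4 peak lists called dDAVP 1, vehicle 1, dDAVP 2 and vehicle 2 here. The purpose stated for the series was to find changes of histone acetylation in response to vasopressin.

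The channel is built from alpha, beta and gamma subunits and carries sodium from the urine into the principal cells of the collecting duct. Aldosterone binds the mineralocorticoid receptor, which raises transcription of channel subunits and of regulators such as the kinase Sgk1. That kinase phosphorylates the ubiquitin ligase Nedd4l, which otherwise removes the channel from the cell surface. Vasopressin also stimulates the channel in this segment, through cAMP.

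A share of 57.4% of all protein-coding genes had covered bases in their window in all 4 lists. Immunoprecipitated libraries held 27923780 to 32705755 kept tags, and the lists called from them held 37235 peaks in dDAVP 1, 39745 in vehicle 1, 20124 in dDAVP 2 and 29597 in vehicle 2. The lists covered 99.0 Mb, 104 Mb, 33.5 Mb and 56.9 Mb in the same order of lists. The dDAVP list was the shorter in both experiments, so that the treatment and the length of the list cannot be told apart. Duplicate tags, which the peak caller dropped, made up 11.1% in dDAVP 1 and 7.67% in vehicle 1, and 18.4% in dDAVP 2 and 13.4% in vehicle 2. Of 5 principal cell markers, 4 (Aqp2, Aqp3, Avpr2 and Gata3) had a called start or gene end in all 4 lists, while Aqp4 had none. Of 17 markers of other kidney and stromal cell types, 0 were so called in all 4 lists and 14 in none. The exceptions were Slc12a3 in dDAVP 1, Col1a1 in both lists of experiment 1, and Cd68 in dDAVP 1, vehicle 1 and vehicle 2. By covered bases in the gene window the contrast was weaker. Slc12a3, Cd68 and Pecam1 had them in all 4 lists, and Slc4a1, Slc26a4, Col1a1 and Ptprc in some. Pecam1 had 6693 bp in dDAVP 1, 5858 in vehicle 1, 3809 in dDAVP 2 and 6264 in vehicle 2.

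Promoter sequences from RefSeq (build GRCm38.p6, which is mm10) were at hand for 13 transcription starts of 6 of the genes. Each window runs from 250 bases before to 50 bases after a start, 5′ to 3′ along the gene. Of these, 7 are printed, because H3K27ac calls separate the starts of Sgk1 and of Tsc22d3 and separate Scnn1g from Scnn1b, and because Usp2 was the single gene with more covered bases with dDAVP in both experiments. Positions in kb are counted from the end of the gene with the lower coordinate. Capitals mark matches, on either strand, to AGAACA (an arm of the steroid hormone response element), TGACG (an arm of the cAMP response element), GGGCGG (the GC box), CCAAT or TATAAA.
Sgk1 start at 111.706 kb, chr10:21993640-21993939, plus strand: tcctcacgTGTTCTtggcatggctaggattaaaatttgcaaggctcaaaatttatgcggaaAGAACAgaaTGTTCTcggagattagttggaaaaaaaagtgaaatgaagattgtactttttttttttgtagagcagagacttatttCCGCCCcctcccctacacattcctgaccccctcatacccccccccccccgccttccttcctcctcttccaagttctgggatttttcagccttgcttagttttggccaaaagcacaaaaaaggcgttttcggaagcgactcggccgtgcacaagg
Sgk1 start at 112.482 kb, chr10:21994416-21994715, plus strand: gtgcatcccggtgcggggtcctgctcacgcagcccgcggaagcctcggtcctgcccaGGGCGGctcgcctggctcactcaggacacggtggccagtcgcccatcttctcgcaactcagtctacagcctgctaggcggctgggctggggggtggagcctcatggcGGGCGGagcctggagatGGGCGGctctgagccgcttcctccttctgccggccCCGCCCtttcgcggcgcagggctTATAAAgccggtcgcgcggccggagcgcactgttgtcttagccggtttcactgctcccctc
Tsc22d3 start at 3.14 kb, chrX:140542619-140542918, minus strand: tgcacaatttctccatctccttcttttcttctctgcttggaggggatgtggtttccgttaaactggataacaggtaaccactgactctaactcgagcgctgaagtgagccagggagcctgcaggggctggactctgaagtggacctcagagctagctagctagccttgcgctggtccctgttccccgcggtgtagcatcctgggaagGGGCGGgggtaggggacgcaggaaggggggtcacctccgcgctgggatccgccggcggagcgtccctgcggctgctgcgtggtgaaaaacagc
Tsc22d3 start at 60.994 kb, chrX:140600473-140600772, minus strand: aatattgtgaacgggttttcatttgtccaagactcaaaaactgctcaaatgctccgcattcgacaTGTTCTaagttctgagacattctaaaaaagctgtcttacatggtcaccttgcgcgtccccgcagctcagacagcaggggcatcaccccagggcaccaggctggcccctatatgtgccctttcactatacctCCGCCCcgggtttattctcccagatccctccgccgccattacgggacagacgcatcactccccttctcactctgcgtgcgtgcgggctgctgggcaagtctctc
Scnn1g start at 0.059 kb, chr7:121734229-121734528, plus strand: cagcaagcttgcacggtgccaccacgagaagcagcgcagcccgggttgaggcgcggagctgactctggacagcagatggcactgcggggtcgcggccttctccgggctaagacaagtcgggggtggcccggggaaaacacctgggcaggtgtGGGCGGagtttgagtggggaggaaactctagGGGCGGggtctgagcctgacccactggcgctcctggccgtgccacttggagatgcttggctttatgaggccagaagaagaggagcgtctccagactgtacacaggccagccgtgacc
Scnn1b start at 0 kb, chr7:121864788-121865087, plus strand: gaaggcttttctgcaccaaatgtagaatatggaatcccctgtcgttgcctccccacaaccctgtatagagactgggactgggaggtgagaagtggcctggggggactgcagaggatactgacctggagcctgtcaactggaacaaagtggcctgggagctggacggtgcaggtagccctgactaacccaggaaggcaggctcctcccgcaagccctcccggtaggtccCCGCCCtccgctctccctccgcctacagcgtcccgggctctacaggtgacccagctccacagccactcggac
Usp2 start at 17.899 kb, chr9:44084670-44084969, plus strand: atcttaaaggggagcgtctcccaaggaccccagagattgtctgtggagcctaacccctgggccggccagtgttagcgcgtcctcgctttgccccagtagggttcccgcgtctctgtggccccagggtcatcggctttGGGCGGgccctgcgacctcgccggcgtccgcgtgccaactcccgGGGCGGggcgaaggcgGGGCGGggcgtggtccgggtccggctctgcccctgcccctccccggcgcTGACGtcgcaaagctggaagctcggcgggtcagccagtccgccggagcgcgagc

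The palindromic steroid hormone response element, AGAACA followed after 3 bases by TGTTC, was found in 12 of 21262 promoter windows (0.0564%). Of the 13 windows of these genes it was found in 1, that of the Sgk1 start at 111.706 kb. There it began 189 bp before the start and was matched on both strands, in the overlapping copies printed above as capitals. The single arm AGAACA was present in 4 of the 13 windows, 3 of Sgk1 and 1 of Tsc22d3, against 16.2% of all windows. The full cAMP response element TGACGTCA was in 0 of 13, against 2.23% of all windows. Its arm TGACG was in 3 of 13, against 23.6% of all windows, and that of Usp2 began 4 bp before the start. GC boxes were in 8 of 13 windows, against 46.2% of all windows, with 3 in Usp2 and 4 in Sgk1 at 112.482 kb. CCAAT was in 3 of 13, against 38.2% of all windows, and TATAAA in 2 of 13, against 12.6%. The Sgk1 window at 112.482 kb had a GC content of 69.7% and that at 111.706 kb one of 46.3%, where the median of all windows was 56.3%. A letter match is a description of the sequence and shows no binding.

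All 10 genes had called peaks in all 4 lists. Together their windows spanned 1216 kb, of which 191 kb (15.7%) were covered by 63 peaks in dDAVP 1 and 198 kb (16.3%) by 71 peaks in vehicle 1. In experiment 2 the covered length was 53.5 kb (4.40%) in 33 peaks with dDAVP and 86.7 kb (7.13%) in 39 peaks with vehicle. The median share of a window covered was 23.9% in dDAVP 1, 26.5% in vehicle 1, 6.49% in dDAVP 2 and 10.7% in vehicle 2. The medians over all genes covered in all 4 lists were 11.7%, 12.0%, 4.32% and 6.58% in the same order of lists. The median of these genes was thus above the median of such genes in each list, but this did not hold for every gene. Nr3c2, Sgk1 and Tsc22d3 lay below the latter median in every list, Scnn1g in both lists of experiment 2, and Nedd4l in dDAVP 2. The libraries are of bulk chromatin, so that the mark in fewer cells and less of the mark per cell cannot be told apart. With 2 lists a group, the smallest p of a two-sided exact permutation test is 1/3, so no gene could pass a threshold of 0.05, and each difference is given with its spread. Nothing in the labels tells whether the 2 experiments used separate cultures, so the spread may be technical.

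**Figure D1:**
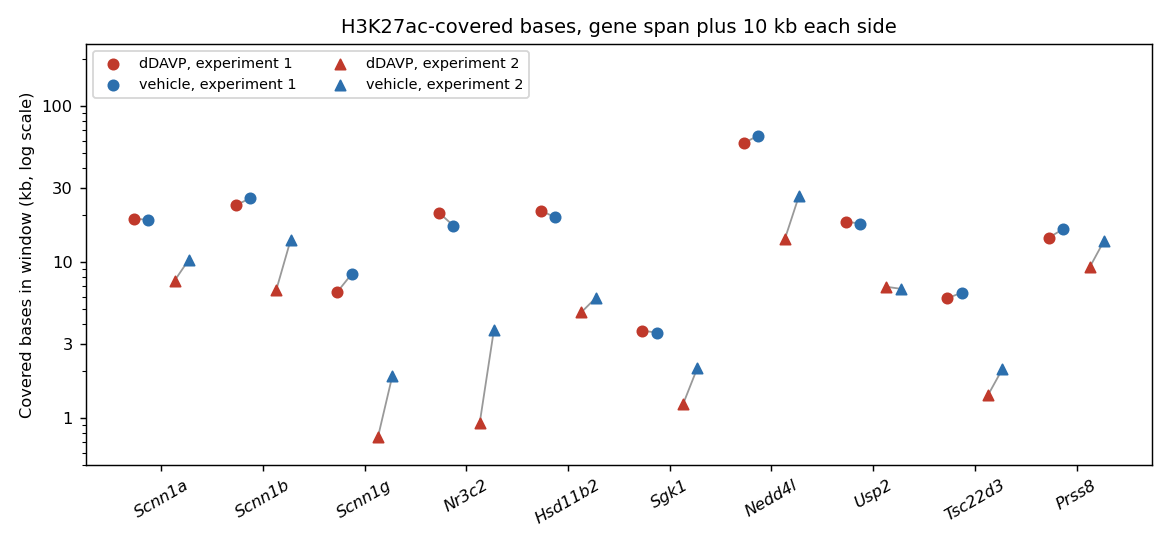
Bases covered by called H3K27ac peaks (kb, log scale) in the window of each of the 10 genes. Red points are dDAVP and blue points vehicle, circles are experiment 1 and triangles experiment 2, and grey lines join the lists of 1 experiment. Experiment 2 lies below experiment 1 for every gene, and Usp2 is the gene whose dDAVP point lies just above its vehicle point in both experiments.

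Among the channel subunits, Scnn1a, which encodes the alpha subunit (chr6:125314271-125344943), had 18984 covered bases in dDAVP 1 and 18651 in vehicle 1, and 7616 in dDAVP 2 and 10374 in vehicle 2. Its values were close in experiment 1 and lower with dDAVP in experiment 2, with log2 ratios of dDAVP over vehicle of 0.026 and -0.45. Scnn1b, which encodes the beta subunit (chr7:121865038-121918728), had 23104 covered bases in dDAVP 1 and 25601 in vehicle 1, and 6652 in dDAVP 2 and 13823 in vehicle 2. Scnn1g, which encodes the gamma subunit (chr7:121734420-121768482), had 6440 in dDAVP 1 and 8366 in vehicle 1, and 759 in dDAVP 2 and 1853 in vehicle 2. Both genes were lower with dDAVP in each experiment, yet the groups overlapped because the experiments lay further apart than the treatments. The log2 ratios were -0.15 and -1.06 for Scnn1b and -0.38 and -1.29 for Scnn1g, those of Scnn1g standing at percentiles 12.5 and 11.9 of all genes covered in all 4 lists. The difference, dDAVP minus vehicle, averaged -4834 ± 3305 bp for Scnn1b and -1510 ± 588 bp for Scnn1g (SD, n = 2 pairs). The exact permutation p was 0.667 for each, two-sided, and 1 for Scnn1a.

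As a share of the window, which allows genes of unequal length to be set side by side, Scnn1a was covered by 37.5% in dDAVP 1, 36.8% in vehicle 1, 15.0% in dDAVP 2 and 20.5% in vehicle 2. Scnn1b was covered by 31.4%, 34.7%, 9.03% and 18.8% in the same order of lists, and Scnn1g by 11.9%, 15.5%, 1.40% and 3.43%. The order alpha, beta, gamma held in each of the 4 lists with this window, while the order of alpha and beta depended on its size. Scnn1a exceeded Scnn1b by 3.97 ± 2.41 percentage points and Scnn1b exceeded Scnn1g by 15.4 ± 5.53 points (mean and SD over the 4 lists). With 50 kb on either side Scnn1b exceeded Scnn1a in every list, and the difference, Scnn1a minus Scnn1b, was -5.80 points in dDAVP 1, -12.8 in vehicle 1, -2.93 in dDAVP 2 and -5.68 in vehicle 2. In the gene span alone it was 1.09 ± 1.54 points (mean and SD over the 4 lists), smaller than its spread. Scnn1g was the lowest in every list with each of these windows.

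The subunit genes differed in where their peaks lay. At Scnn1a, 4 of 7 regions (peaks of the 4 lists merged where they overlapped) were called in all 4 lists, at -2.375 to 0.782 kb, 4.494 to 12.899 kb, 15.480 to 18.990 kb and 34.303 to 37.457 kb. The first of these lies across the lower end of the gene, and the last lies outside the gene. The strongest peak of Scnn1a by the authors' fold enrichment lay beyond the gene, in the region at 34.303 to 37.457 kb, in experiment 1, at percentile 98.7 of its list in dDAVP 1 and 97.2 in vehicle 1. In experiment 2 it was another peak, across the gene's lower end, at percentile 92.1 in dDAVP 2 and 91.4 in vehicle 2. Neighbouring genes Ltbr and Tnfrsf1a overlap the window, and peaks there cannot be assigned to a gene by position alone.

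At Scnn1g the single start in the annotation was called in all 4 lists, by peaks of 3536 bp in dDAVP 1, 4156 bp in vehicle 1, 215 bp in dDAVP 2 and 866 bp in vehicle 2. The 215 bp of dDAVP 2 equal the fragment length given in that list's header. At Scnn1b a peak came within 1 kb of the start in vehicle 1 alone, at -0.904 to -0.134 kb. The nearest region called in all 4 lists lay inside the gene, at 1.864 to 14.059 kb, with 12186 bp in dDAVP 1, 10721 bp in vehicle 1, 5758 bp in dDAVP 2 and 8398 bp in vehicle 2. It held the strongest peak of the Scnn1b window in each list. A further region at 23.160 to 26.901 kb had 1163 bp in dDAVP 1 and 2434 bp in vehicle 1, and 894 bp in dDAVP 2 and 3637 bp in vehicle 2. The widest region at Scnn1b, 22052 bp at the upper edge of the window, ran over 62.398 to 84.449 kb. It lay beyond the gene and reached into the neighbour Cog7, and its dDAVP 2 peaks fell outside the window. The window of Scnn1b without the span of Cog7 gave log2 ratios of -0.14 and -0.91. Within the gene span alone they were 0.027 and -0.91, so the fewer bases of Scnn1b in experiment 1 came from peaks outside the gene.

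The mineralocorticoid receptor gene Nr3c2 (chr8:76898083-77245012) had 20707 covered bases in dDAVP 1 and 17145 in vehicle 1, and 928 in dDAVP 2 and 3678 in vehicle 2. The dDAVP list was higher in experiment 1 and lower in experiment 2, with log2 ratios of 0.27 and -1.99. Among 12555 genes covered in all 4 lists these ratios stood at percentile 84.9 in experiment 1 and 3.60 in experiment 2. The mean difference was 406 ± 4463 bp (SD, n = 2 pairs; exact permutation p = 1, two-sided), smaller than its spread. Of 13 regions, 3 were called in all 4 lists. The region around the start, at 0.758 to 5.415 kb, had 4647 bp in dDAVP 1, 4181 bp in vehicle 1, 215 bp in dDAVP 2 and 1053 bp in vehicle 2. The other 2, inside the gene at 221.439 to 225.320 kb and at 233.901 to 236.458 kb, had fewer bases with dDAVP in both experiments. In experiment 2 the peak edges lay 566 bp (dDAVP 2) and 253 bp (vehicle 2) from the start at 4.247 kb, and both peaks of experiment 1 covered it.

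Hsd11b2 encodes the enzyme that inactivates glucocorticoids and so keeps them off the mineralocorticoid receptor (chr8:105518746-105523988). It had 21376 covered bases in dDAVP 1 and 19393 in vehicle 1, and 4768 in dDAVP 2 and 5875 in vehicle 2, with log2 ratios of 0.14 and -0.30. As at Nr3c2, the sign differed between the experiments. In both lists of experiment 1 a single broad peak took in the whole gene, of 24639 bp in dDAVP 1 and 24398 bp in vehicle 1. In experiment 2 the gene's lower end lay under a peak of 3424 bp with dDAVP and 3597 bp with vehicle, and separate smaller peaks lay beyond its other end. The window overlaps Atp6v0d1. Without its span, Hsd11b2 had 11848 covered bases in dDAVP 1 and 9865 in vehicle 1, and 3424 in dDAVP 2 and 3597 in vehicle 2.

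Sgk1, the kinase that phosphorylates Nedd4l, spans 118 kb in the annotation (chr10:21882184-21999903) with 6 starts. Its window held 1 region, at 111.147 to 114.777 kb, of 3631 bp in dDAVP 1 and 3533 bp in vehicle 1, and 1226 bp in dDAVP 2 and 2088 bp in vehicle 2. The widths were close in experiment 1 and narrower with dDAVP in experiment 2, with log2 ratios of 0.039 and -0.77. The starts at 111.706 and 112.482 kb, whose promoters are printed above, were called in all 4 lists. The other 4, at 0, 96.488, 103.920 and 110.039 kb, were called in none, and the nearest of them lay 1108 to 1738 bp from the peak. The steroid hormone response element before the start at 111.706 kb lay inside the peak of dDAVP 1, of vehicle 1 and of vehicle 2. In dDAVP 2 the peak began 71 bp after that start, and its edge lay 247 bp from the element.

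Nedd4l, the ubiquitin ligase that removes the channel from the membrane, is one of the longest genes of the set (chr18:64884480-65217826) and had the most covered bases. There were 58041 in dDAVP 1 and 64651 in vehicle 1, and 13963 in dDAVP 2 and 26521 in vehicle 2. The dDAVP list was lower in both experiments, with log2 ratios of -0.16 and -0.93 and a mean difference of -9584 ± 4206 bp (SD, n = 2 pairs; exact permutation p = 0.667, two-sided). With both lists of each experiment shortened to equal covered bases, the mean log2 ratio of Nedd4l was 0.014, against -0.54 with all peaks, so its direction was not kept. Of 27 regions, 6 were called in all 4 lists, the widest at 67.723 to 80.143 kb and at 101.482 to 113.168 kb. The first of these had 11482 bp in dDAVP 1, 12421 bp in vehicle 1, 3990 bp in dDAVP 2 and 6665 bp in vehicle 2. Neither end of the gene was called in any list. The nearest peak to its lower end began 1551 bp inside the gene in dDAVP 1, 1119 bp in vehicle 1, 2391 bp in dDAVP 2 and 2289 bp in vehicle 2.

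**Figure D2:**
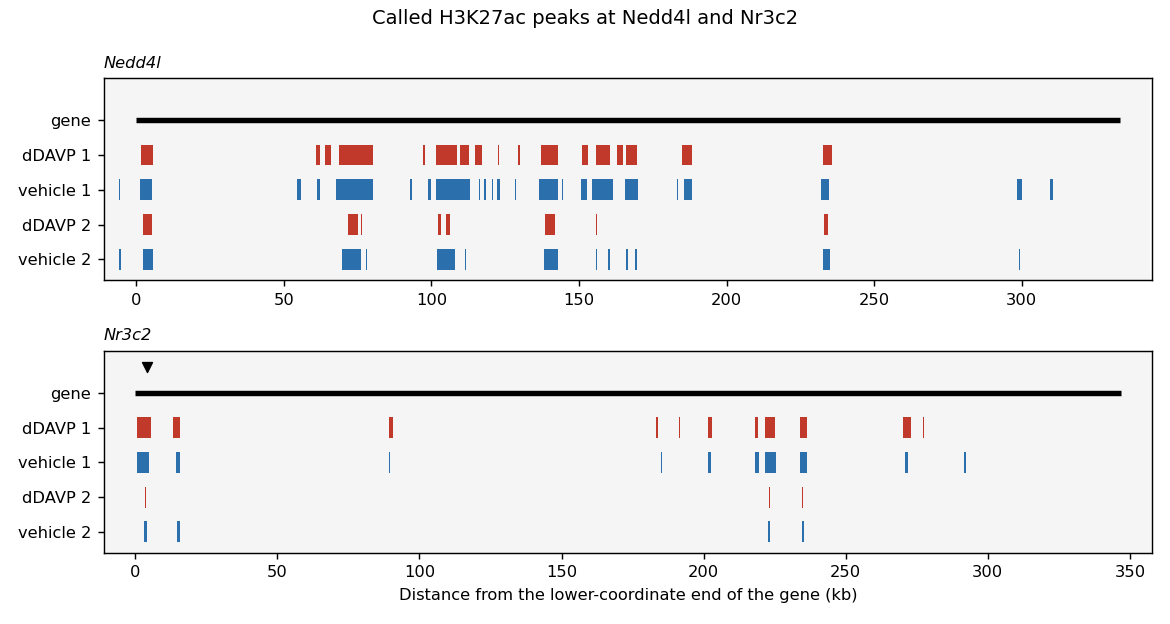
Called peaks at Nedd4l and Nr3c2 along distance from the lower-coordinate end of each gene (kb), with dDAVP lists in red and vehicle lists in blue. Black lines are the genes, grey areas the windows and the filled triangle the Nr3c2 start, called in all 4 lists. At Nedd4l 6 regions recur in every list, the first within 6 kb of the gene's lower end, and at Nr3c2 3 recur, as slivers of at most 394 bp in dDAVP 2.

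Usp2 encodes a deubiquitinase that counters Nedd4l at the channel (chr9:44067021-44095627). It had 18173 covered bases in dDAVP 1 and 17652 in vehicle 1, and 6942 in dDAVP 2 and 6741 in vehicle 2. The mean difference, 361 ± 226 bp more with dDAVP (SD, n = 2 pairs; exact permutation p = 0.667, two-sided), was the smallest of the 6 genes whose direction was the same in both experiments. Both log2 ratios were 0.042. In experiment 2, where 95.2% of genes covered in all 4 lists had fewer covered bases with dDAVP, that ratio stood at percentile 96.7 of those genes. In experiment 1 it stood at percentile 60.1. The start at 17.899 kb was called in all 4 lists. The region that holds it, at 5.442 to 23.378 kb, had 15371 bp in dDAVP 1 and 16285 bp in vehicle 1, and 6942 bp in dDAVP 2 and 6741 bp in vehicle 2. In experiment 1 the extra bases with dDAVP lay in the region at 0.057 to 2.510 kb, of 2417 bp in dDAVP 1 and 439 bp in vehicle 1. The window also takes in parts of C1qtnf5 and Mfrp. The direction of Usp2 was lost with peaks of at least 3-fold enrichment (mean log2 ratio -0.12) and with 50 kb on either side (-0.14). With a -log10 q of at least 5 its log2 ratios differed in sign, -0.24 in experiment 1 and 2.51 in experiment 2, where vehicle 2 kept 1016 bp.

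Tsc22d3 encodes GILZ, an aldosterone- and glucocorticoid-induced protein that stimulates the channel (chrX:140539528-140600522, minus strand). It had 5863 covered bases in dDAVP 1 and 6359 in vehicle 1, and 1405 in dDAVP 2 and 2056 in vehicle 2, with log2 ratios of -0.12 and -0.55. The mean difference was -574 ± 110 bp (SD, n = 2 pairs; exact permutation p = 0.667, two-sided). Of its 3 starts, that at 3.14 kb was called in all 4 lists and those at 9.043 and 60.994 kb in none. The region across the called start, at 1.465 to 4.150 kb, had 2597 bp in dDAVP 1 and 2381 bp in vehicle 1, and 1065 bp in dDAVP 2 and 1431 bp in vehicle 2. The arm AGAACA lay in the printed window of the start at 60.994 kb, 2036 bp from the nearest peak in dDAVP 1 and 2124 bp in vehicle 1. In experiment 2 it lay 57506 bp from the nearest peak in dDAVP 2 and 57106 bp in vehicle 2. Within the gene span alone, Tsc22d3 had log2 ratios of 0.12 and -0.43, so the fewer bases in experiment 1 came from peaks outside the gene.

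**Figure D3:**
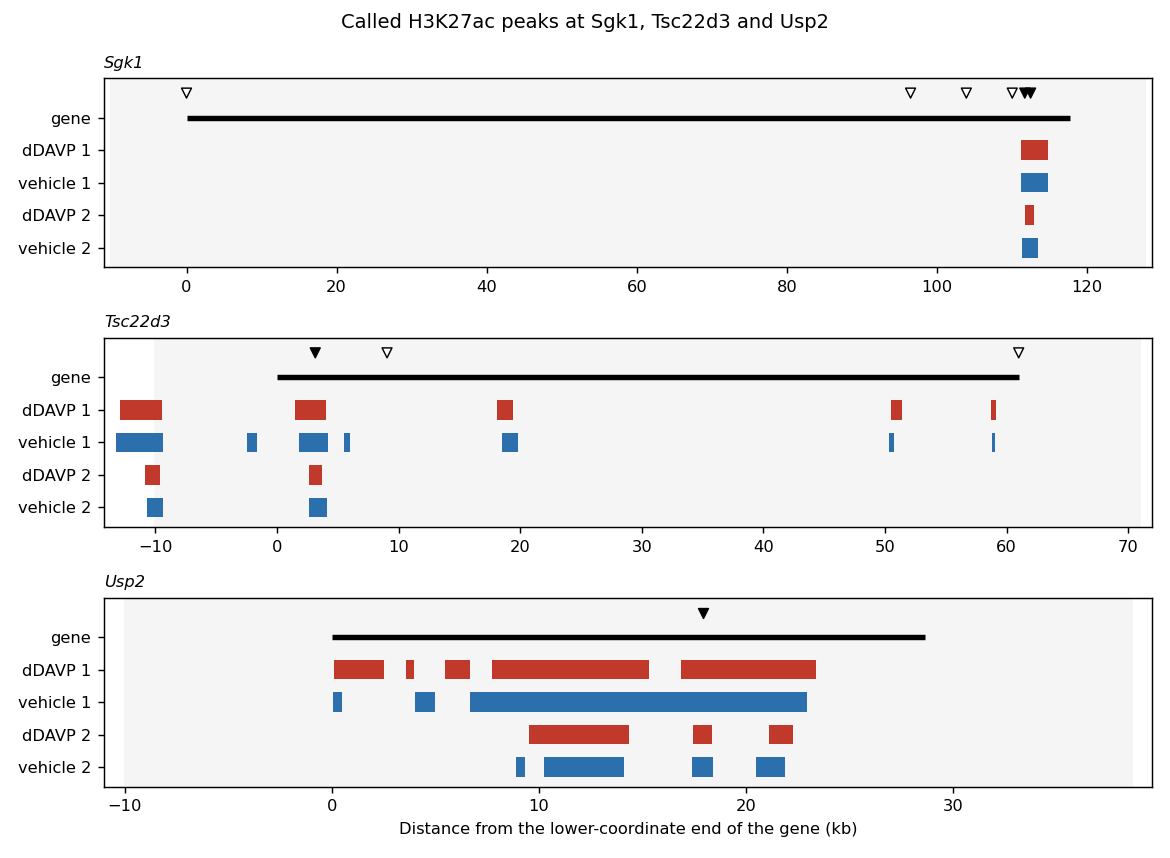
Called peaks at Sgk1, Tsc22d3 and Usp2 along distance from the lower-coordinate end of each gene (kb), with dDAVP lists in red and vehicle lists in blue. Black lines are the genes, grey areas the windows, and triangles the starts in the annotation, filled where called in all 4 lists and open where not. At Sgk1 both filled starts share a single region at 111.147 to 114.777 kb, and at Tsc22d3 the filled start at 3.14 kb is covered in every list.

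Prss8 encodes prostasin, a membrane-bound protease through which the channel is activated (chr7:127925717-127930149). It had 14365 covered bases in dDAVP 1 and 16308 in vehicle 1, and 9265 in dDAVP 2 and 13646 in vehicle 2. The dDAVP list was lower in both experiments, with log2 ratios of -0.18 and -0.56 and a mean difference of -3162 ± 1724 bp (SD, n = 2 pairs; exact permutation p = 0.667, two-sided). A single peak covered the whole gene in dDAVP 1, vehicle 1 and vehicle 2, while dDAVP 2 had 4 separate peaks in the same region. Both gene ends were called in all 4 lists. Bases common to all 4 lists made up 64.5% of the covered bases of dDAVP 1, the highest share of the 10 genes, and 4.48% at Nr3c2 was the lowest. The window also holds parts of Kat8 and Prss36.

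Set together, 5 of the 10 genes had fewer covered bases with dDAVP in both experiments (Scnn1b, Scnn1g, Nedd4l, Tsc22d3 and Prss8), against 51.4% of all genes covered in all 4 lists. A single gene, Usp2, had more in both, against 2.84% of all genes. The other 4 (Scnn1a, Nr3c2, Hsd11b2 and Sgk1) had more in experiment 1 and fewer in experiment 2, against 43.7% of all genes. The share with fewer in both lay near the background. The median log2 ratio of the 10 genes was -0.046 in experiment 1 and -0.66 in experiment 2, and that of all genes was -0.019 and -0.49. The middle 50% of all genes ran between -0.21 and 0.16 in experiment 1 and between -0.89 and -0.24 in experiment 2. Relative to the median of all genes, Scnn1a, Hsd11b2 and Usp2 were higher with dDAVP in both experiments, and 28.1% of all genes were. The same 5 genes (Scnn1b, Scnn1g, Nedd4l, Tsc22d3 and Prss8) were then lower in both, and 28.1% of all genes were. With lists of equal covered bases, 6 of the 10 genes were covered in all 4 lists, of which Scnn1b and Prss8 had fewer covered bases with dDAVP in both experiments, against 36.6% of all genes so covered. Hsd11b2 then had more in both, with log2 ratios of 0.14 and 0.41, against 13.3% of all genes.

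**Figure D4:**
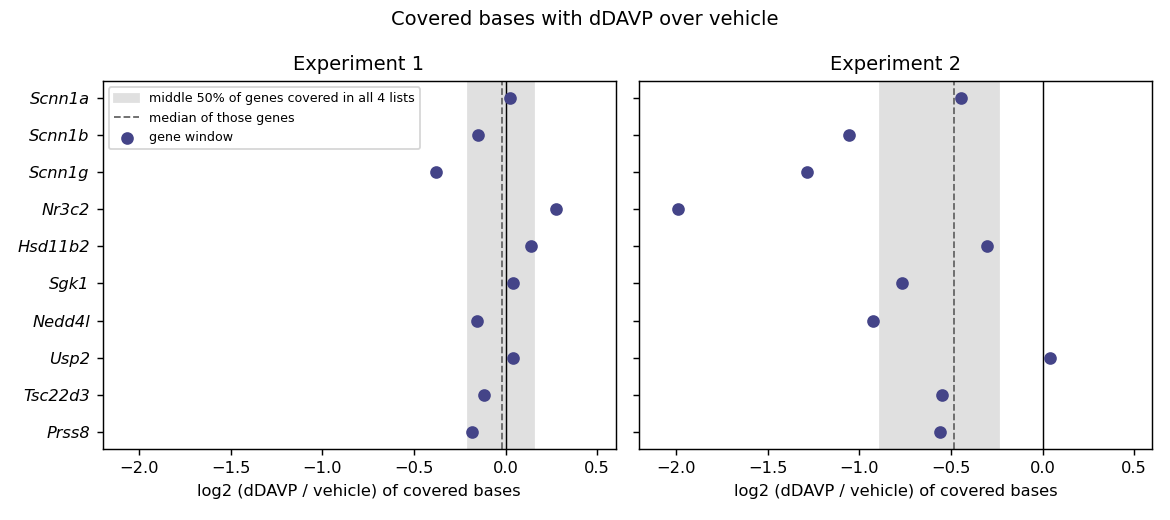
Log2 ratio of covered bases, dDAVP over vehicle, for each gene in experiment 1 (left) and experiment 2 (right). Points are the genes, the dashed line is the median of all genes covered in all 4 lists (-0.019 and -0.49) and the grey band their middle 50%. Nr3c2 lies above the band in experiment 1 and below it in experiment 2, and Usp2 lies above the band in experiment 2. Scnn1g lies below it in both experiments, and Scnn1b and Nedd4l in experiment 2.

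At the starts of transcription, 8 of the 10 genes were called in all 4 lists by a peak within 1 kb, against 45.9% of all protein-coding genes. That background includes genes without any peak, while all 10 genes had covered windows. Among all genes, 10041 had a called start and 12555 a covered window in all 4 lists. The 8 of 10 thus lay near the share among genes so covered. Either gene end was taken where the promoter table held no start, which was so for Scnn1a, Hsd11b2, Nedd4l and Prss8. The exceptions were Scnn1b and Nedd4l, described above. Of the 13 starts listed for the other 6 genes, 6 were called in all 4 lists, 6 in none, and that of Scnn1b in vehicle 1 alone. With peaks of a -log10 q-value of at least 5, 3 of the 10 genes (Scnn1a, Usp2 and Prss8) kept a call in all 4 lists, against 36.6% of all genes. With equal covered bases 4 of the 10 (Scnn1a, Hsd11b2, Sgk1 and Prss8) were called, against 39.9% of all genes.

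Counted by region, the windows held 83 of the 45705 regions of the whole genome. Of these, 24 (28.9%) were called in all 4 lists, against 36.2% of all regions. Both dDAVP lists and neither vehicle list called 0 regions here, against 0.0635% of all regions. Both vehicle lists and neither dDAVP list called 2, against 2.51% of all regions. Both lay in the Nedd4l window, at -5.872 to -5.387 kb, with 361 bp in vehicle 1 and 486 bp in vehicle 2, and at 298.401 to 300.265 kb, with 1865 bp in vehicle 1 and 224 bp in vehicle 2. Of the regions called in all 4 lists, 15 of 24 had fewer bases with dDAVP in both experiments, against 51.3% of all such regions. More bases with dDAVP in both were found in 0 of 24, against 4.78%. A further 21 regions (25.3%) were called in both lists of experiment 1 only, against 16.0% of all regions. In dDAVP 1 alone 12 (14.5%) were called, against 11.9%, and in vehicle 1 alone 21 (25.3%), against 15.4%. Every list but dDAVP 2 called 3 (3.61%), against 12.6%.

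Base by base within the 10 windows, 51566 bp were covered in all 4 lists. Bases covered in both dDAVP lists and neither vehicle list came to 0, and those covered in both vehicle lists and neither dDAVP list to 2073, of which 1235 were in Scnn1b, 767 in Nedd4l and 71 in Tsc22d3. In experiment 2, 96.3% of the bases covered in dDAVP 2 were also covered in vehicle 2, and 59.5% of those of vehicle 2 in dDAVP 2. In experiment 1 the shared bases were 83.0% of dDAVP 1 and 80.1% of vehicle 1. Every base of dDAVP 2 in these windows was also covered in dDAVP 1, and 53522 of its 53524 bases in vehicle 1. This nesting is of the 10 windows only. Over the whole genome, 59 regions were called in dDAVP 2 alone, 0.129% of all regions.

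The height of the peaks was described by the mean tag pileup per 1000000 tags over the covered bases, to be read beside the covered lengths above. Scnn1a had 1.05 in dDAVP 1 and 1.09 in vehicle 1, and 0.807 in dDAVP 2 and 1.08 in vehicle 2. Sgk1 had 0.750 in dDAVP 1 and 0.790 in vehicle 1, and 0.638 in dDAVP 2 and 0.864 in vehicle 2. Both were lower with dDAVP in each experiment, as was Hsd11b2, which makes 3 of 10 genes against 41.5% of all genes covered in all 4 lists. Scnn1b had 0.742 in dDAVP 1 and 0.741 in vehicle 1, and 0.661 in dDAVP 2 and 0.614 in vehicle 2. It was higher with dDAVP in each experiment, with Nedd4l and Usp2, which makes 3 of 10 against 9.99% of all genes. The excess of Scnn1b and Nedd4l in experiment 1 was by ratios of 1.00, and that of Usp2 by 1.11. The median ratio of all genes was 1.00 in experiment 1 and 0.864 in experiment 2. This mean is taken over called bases alone, so it moves with the weak peaks that a list did or did not call. Within the Scnn1b region at 1.864 to 14.059 kb, the highest mean pileup of a peak was 0.999 in dDAVP 1 and 1.12 in vehicle 1, and 0.705 in dDAVP 2 and 0.797 in vehicle 2. In the Nedd4l region at 1.119 to 5.769 kb it was 0.883 in dDAVP 1 and 1.07 in vehicle 1, and 0.835 in dDAVP 2 and 0.986 in vehicle 2. These values, of regions chosen after the window means were seen, were lower with dDAVP in both experiments, opposite in sign to the window means.

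A wider list of 37 genes of the pathway (receptor chaperones, other aldosterone targets, kinases, scaffolds, proteases and their inhibitors, and transporters) gave a similar picture, with 35 covered in all 4 lists. Fewer covered bases with dDAVP in both experiments were found for 18 (51.4%), against 51.4% of all genes covered in all 4 lists. More in both were found for 2 (5.71%), Hsp90ab1 and Rictor, against 2.84%. Median log2 ratios were -0.024 and -0.48, against -0.019 and -0.49 for all genes. The lowest mean ratios were those of Mapkap1, a subunit of the mTORC2 kinase that activates Sgk1 (-0.25 and -1.26), of Nedd4, a ubiquitin ligase related to Nedd4l (-0.56 and -0.75), and of Cnksr3, a scaffold for Sgk1 and Nedd4l (-0.024 and -1.20). The highest were those of Ywhab, a 14-3-3 protein (1.02 and -0.15), of Rictor, another mTORC2 subunit (0.37 and 0.0048), and of Hsp90ab1, a chaperone of steroid receptors (0.20 and 0.17). Zbtb16 had 2119 covered bases in dDAVP 1, 3597 in vehicle 1 and 0 in both lists of experiment 2, and Ndrg2 had 0 in all 4.

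By the share of the window covered over the 4 lists, the protein-coding genes nearest to Scnn1a were Cyp27b1 and Gpr84, at distances of 0.812 and 1.06 percentage points. Nearest to Scnn1b were Arhgap23 and Irgm1, at 1.77 and 1.79 points, and nearest to Scnn1g were Strc and Comtd1, at 1.06 and 1.19 points. With 4 lists that share 2 experiments this is a description of likeness in covered share only.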

How the data were processed

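H3K27ac was measured by ChIP-seq in 4 immunoprecipitated and 4 input libraries. The authors called peaks per library against the matching input with MACS 2.1.1.20160309 in broad mode, with q-value limits of 0.01 and 0.1, per the file headers. The build was mm10 and the tools BWA and SAMtools besides the peak caller, per the submitters' processing notes. The deposited pileup is a signal (tag coverage), which the caller scaled to the smaller of the immunoprecipitated and input depths, per the file headers. The deposited fold enrichment is a ratio to local background, and the deposited -log10 p-values and -log10 q-values had lost their column names. The authors' fold and q-value were used to rank or filter peaks within a list only. GEO's records pair each list with an input library, but its header names the immunoprecipitated library. Peak names in the lists used for experiment 2 carry exp3, while their headers name experiment 2, which was used.

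Covered bases were counted in each gene window, and peaks that overlapped or touched, from any list, were joined into regions, called by a list on at least 1 bp. Pileup was divided by the tags the caller had scaled to and given per 1000000. Gene spans and promoter sequences came from RefSeq tables (GRCm38.p6), with all 10 genes matched by symbol and promoter entries for 6. Exon positions were not used here. Exact permutation tests were two-sided (scipy 1.17.1, pandas 2.3.3, numpy 2.4.6, Python 3.11.15). Counting was tested on simulated peaks. Titles give the experiment number shared by a dDAVP and a vehicle library, and deviations of same-numbered lists correlated across 12555 genes (r = 0.620, log2 covered bases, genes not being independent). The genes and lists were chosen with earlier results of these data known. Named pathway genes were the 3 lowest and 3 highest by mean log2 ratio, and the nearest 2 genes by covered share were named for each channel subunit. Alternatives were lists of equal length or covered bases, stricter peak thresholds (-log10 q of 5, fold of 3), other windows, midpoint counting, other merging and overlap rules, centring, a replicate block and each experiment left out.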

Additional observations from a re-analysis of the deposited data

Results flagged for a closer look

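Peaks outside the autosomes, X and Y were not used in any comparison. There were 22 such peaks in dDAVP 1, 11 in vehicle 1, 5 in dDAVP 2 and 12 in vehicle 2. With no control lists to set them against, these are given as counts only.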

How the results depend on the processing

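The genes with fewer covered bases with dDAVP in both experiments numbered 5 with all peaks, against 51.4% of all genes. With equal covered bases within experiments they numbered 2 of the 6 genes then covered in all 4 lists (Scnn1b, Prss8), against 36.6% of all genes. With a -log10 q of at least 5 they numbered 3 of the 5 then covered, against 51.9%. In the gene span alone they numbered 2 of 10, against 45.5%, and when centred 5 of 10, against 28.1%. They numbered 9 without experiment 1, against 95.2%, and 5 without experiment 2, against 53.3%. The genes with more in both numbered 1, against 2.84% of all genes. They numbered 0 with a -log10 q of at least 5 (3.51% of all genes). With a fold of at least 3 (3.81%) or with 50 kb each side (1.56%) they also numbered 0. They numbered 3 when centred on the median of all genes, against 28.1% of all genes. Without experiment 1 they numbered 1, against 4.78%, and 5 without experiment 2, against 46.6%. Genes with a called start in all 4 lists numbered 8, against 45.9% of all genes. They numbered 3 with a -log10 q of at least 5 (36.6%) and 4 with equal covered bases (39.9%). They numbered 8 without experiment 1 (45.9%) and 8 without experiment 2 (52.5%). Regions called with vehicle only numbered 2, against 2.51% of all regions. They numbered 1 with equal numbers of peaks (0.655% of all regions) and 0 with equal covered bases (0.0150%). They numbered 5 without experiment 1 (19.4% of all regions) and 23 without experiment 2 (18.2%). Those with dDAVP only numbered 0 (0.0635% of all regions), against 0 without experiment 1 (0.617%) and 12 without experiment 2 (12.5%). Of the 6 genes with the same direction in both experiments, the mean log2 ratio changed sign for Nedd4l with equal covered bases (0.0143) and for Usp2 with a fold of at least 3 (-0.12) or 50 kb each side (-0.14). Of the other 4, that of Hsd11b2 (-0.080) was 0.27 with equal covered bases, 0.097 without neighbouring spans and 0.17 when centred, that of Scnn1a (-0.21) was 0.042 when centred, and all 4 were positive without experiment 2 (0.026 to 0.27). The cause was not tested. Equal covered bases left vehicle 2 with 11642 peaks and none at Scnn1g, Nr3c2, Usp2 or Tsc22d3, which have no ratio there. With a replicate block (the 2 experiments as pairs) the exact permutation p was 0.5, the smallest 2 pairs allow, for Scnn1b, Scnn1g, Nedd4l, Usp2, Tsc22d3 and Prss8, and 1 for the other 4 genes. Neither design could give a call, so this says nothing of stability. A match to the cAMP response element with 1 mismatch was found in 1 of 13 promoter windows, against 12.9% of all windows. An exact match was found in 0 of 13, against 2.23%.

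No read counts per region were used here, so bases without a peak are bases not called at this depth, which does not show that the mark is absent. Peaks were called in each library separately, and covered length moves with how much was called in it.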
